A study of Mus musculus with 3 samples.

Results

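The fibrous sheath genes of the sperm tail were followed in single germ cells of the mouse testis after knockdown of Gm4665, a long non-coding RNA. The genes were chosen by name: Akap3, Akap4, Ropn1, Ropn1l, Cabyr, Fsip1 and Fsip2. All 7 had a row in the deposited table, which holds 22843 genes. The series has 3 libraries. The Gm4665 hairpin 1 library (shRNA1) held 1732 cells, the Gm4665 hairpin 2 library (shRNA2) held 1873 cells and the control hairpin library (shCtrl) held 1418 cells. All mice were of the ICR strain. An AAV9 vector that codes for a hairpin plus red fluorescent protein (RFP) was microinjected into each testis at postnatal day 21, with the control hairpin in one testis of a mouse and a Gm4665 hairpin in the other. RFP-positive germ cells of 3 mice per condition were then sorted after somatic cells had been removed, so each library is taken as 1 pool. The sources used here do not give the age at collection or the promoter that drives the hairpin. With 1 library per condition no spread between mice can be estimated. Every interval given here is a 95% interval for counting error, no difference has a replicate check, and no test was possible.

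The fibrous sheath is a cytoskeletal sleeve that surrounds the axoneme and outer dense fibres in the principal piece of the flagellum. It consists of longitudinal columns joined by ribs, and it holds protein kinase A and glycolytic enzymes close to the motor. Its main structural proteins, AKAP4 and AKAP3, are A-kinase anchoring proteins: they bind the regulatory subunit of protein kinase A. ROPN1 and ROPN1L carry a dimerization domain like that of this subunit and bind the same anchors, CABYR is a calcium-binding protein that is phosphorylated during capacitation, and FSIP1 and FSIP2 were named as proteins that interact with AKAP4. Spermatids make these mRNAs before the sheath is complete, and male mice without Akap4 have a defective sheath and are infertile.

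Values are counts of unique molecular identifiers (UMIs), each standing for 1 captured RNA molecule, summed over cells and given as counts per 1000000 UMIs (CPM). The libraries held 38330044 UMIs with hairpin 1, 44640351 with hairpin 2 and 40405313 with shCtrl, at medians of 14667.5, 16518 and 19366 UMIs per cell. Because tags come from the 3' end, CPM was not divided by length, and levels are compared within a gene. Gm4665 had 52.8 CPM with hairpin 1 and 79.1 CPM with hairpin 2, against 311 CPM with shCtrl. Cells were clustered without the sheath genes, and clusters were named from marker lists as 5 germ classes: cells like spermatogonia, spermatocytes of leptotene to zygotene, spermatocytes of pachytene to diplotene, round spermatids, and spermatids that elongate and condense. The elongating class made up 30.1% of the cells with hairpin 1 and 16.3% with hairpin 2, against 46.8% with shCtrl. A mixed cluster with Sertoli cell and elongating spermatid markers made up 10.1% and 14.6% of the hairpin 1 and hairpin 2 cells and 5.99% of the shCtrl cells, and leukocyte-like clusters, called non-germ here, made up 5.54% and 9.77% against 1.48%. Between 5 and 7 cell barcodes were shared by each pair of libraries.

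RNA that leaks from broken cells is captured with every cell, so the non-germ cells show the level that a sheath gene reaches without being made there. In non-germ cells Akap4 was at 282 CPM with hairpin 1, 177 CPM with hairpin 2 and 249.8 CPM with shCtrl, and a UMI of it was found in 95.8%, 91.3% and 95.2% of these cells. Their median depths were 9685.5, 13007 and 13957 UMIs per cell. In the elongating class all cells of each library had an Akap4 UMI. A share of cells with a UMI therefore says little for this gene, and the sheath genes are described by their levels. As a second gauge, the UMIs of each gene in early cells were set against those that the same cells would hold if they carried the gene and Prm1, the protamine of condensing spermatids, in the ratio of the whole library. In leptotene to zygotene cells, Akap3, Akap4, Ropn1, Cabyr and Fsip1 had between 0.623 and 1.06 times that number in every library. Levels of these 5 genes in leptotene to zygotene cells are read as background, and so are their differences between libraries there. In spermatogonia the 5 genes had between 1.05 and 1.81 times that number, and in non-germ cells between 0.841 and 1.66 times. These ranges overlap, so the spermatogonia levels and their differences between libraries are not read as expression.

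The genes peaked in succession. Fsip1, Fsip2 and Ropn1l stood far above the Prm1 ratio already in pachytene to diplotene spermatocytes: Ropn1l at 9.59, 8.69 and 10.4 times that ratio with hairpin 1, hairpin 2 and shCtrl, Fsip1 at 9.18, 7.94 and 11.2 times, and Fsip2 at 9.82, 7.79 and 11.7 times. Akap3 and Cabyr were at 2.36 to 3.52 times it in that class, Ropn1 at 1.70 to 2.32 times and Akap4 at 1.22 to 1.71 times. The Akap4 values lie within the 1.05 to 1.81 times of spermatogonia, so its pachytene levels are not read as expression. Ropn1 lay within that range with shCtrl, at 1.70 times, and above it with both hairpins. With the 3 libraries summed, Ropn1l was highest in pachytene cluster 6 (3513 CPM) and had 3188.5 CPM and 3027 CPM in the large round spermatid clusters 5 and 3. Fsip1 was highest in early round spermatid cluster 7 (186 CPM). Fsip2 was highest in round spermatid cluster 15 (174 CPM), where 86 of 139 cells came from hairpin 1. With hairpin 2, Fsip2 had 104 CPM in cluster 15, against 123 CPM in cluster 5 and 115 CPM in cluster 18. In elongating clusters Fsip1 had at most 34.1 CPM and Fsip2 at most 45.5 CPM. Cabyr was highest in round spermatid cluster 5 (671 CPM) and was between 194 and 257 CPM in the elongating clusters. Akap3 and Ropn1 were both highest in cluster 10 of the elongating class, at 679 and 1584 CPM, and lowest within that class in cluster 8, at 72.4 and 300.2 CPM. Akap3 kept this peak in each library, but with hairpin 2 Ropn1 had 1541 CPM in round spermatid cluster 3 and 1428 CPM in cluster 10. Akap4 was highest in cluster 4 of the elongating class, with 1792 CPM, and 139 of its 188 cells came from shCtrl and 4 from hairpin 2. Clusters 4 and 8 were at 4.66 and 4.64 on a stage index made from the marker lists. Tnp2, which encodes a transition protein, had 29323 CPM in cluster 4 and 6621 CPM in cluster 8, so their order is not settled. Akap4 had 1491.5 CPM in cluster 8. Within hairpin 1, Akap4 had 1462 CPM in cluster 4 and 1449.9 CPM in cluster 0. With hairpin 2 its highest germ cluster of at least 20 cells was cluster 0, with 1357 CPM.

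**Figure D1:**
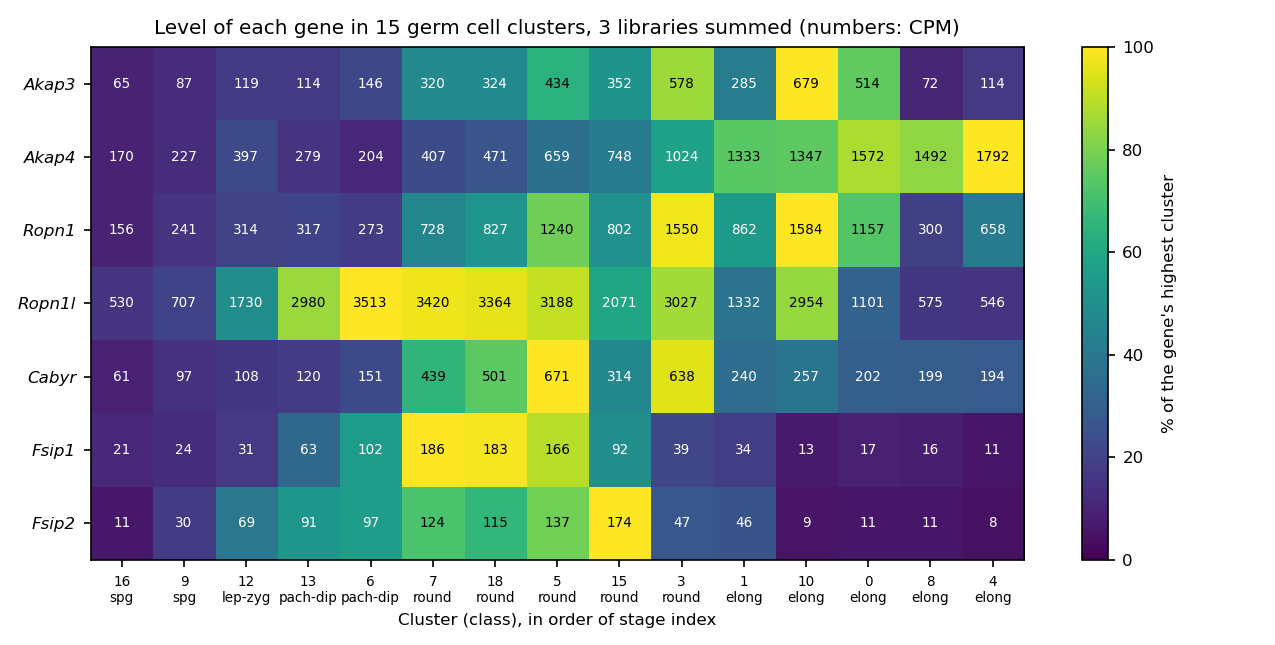
Level of each fibrous sheath gene in the 15 germ cell clusters, 3 libraries summed. Columns are clusters in order of a stage index made from the marker lists, numbers are CPM, and colour is the percentage of the gene's highest cluster. With the libraries summed, the highest cluster lies in pachytene cells for Ropn1l, in round spermatids for Cabyr, Fsip1 and Fsip2, and in elongating cells for Akap3, Ropn1 and Akap4. With hairpin 2 alone, Ropn1 is highest in a round spermatid cluster.

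Neighbouring values in these orders were not always apart. Fsip1 had 186 CPM in cluster 7 and 183 CPM in cluster 18, and their counting intervals overlapped. Cluster 7 held 116 hairpin 1, 1 hairpin 2 and 28 shCtrl cells, and all 90 cells of cluster 18 came from hairpin 2, so the earliest round spermatids were split by library. Over all 19 clusters, Akap3 and Ropn1 had like profiles (Pearson r of log2 CPM 0.927), as had Fsip1 and Fsip2 (r = 0.895). For Akap4 and Ropn1l r was 0.0155, and for Akap4 and Fsip2 it was -0.311. These are descriptions over clusters that share cells of the same libraries. Among 4390 genes, those most like Akap4 were Fam71e1 (r = 0.996), Gm6812 (r = 0.995) and Iqcf3 (r = 0.994). Those most like Akap3 were Erich3 and Trim36 (r = 0.978 each) and Tssk1 (r = 0.975), a testis-specific serine kinase. Ropn1 was most like Sh3d21 (r = 0.991), Ropn1l like Lypd4 (r = 0.984), Cabyr like 4930451I11Rik (r = 0.973), Fsip1 like 1700125H20Rik (r = 0.978) and Fsip2 like Pomgnt1 (r = 0.969).

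Summed over all cells, 4 of the 7 genes were lower than in shCtrl with both hairpins, namely Akap3, Akap4, Ropn1 and Cabyr. Of the 7068 genes with at least 10 CPM and 30 UMIs, 28.2% were lower with both hairpins. The other 3 genes, Ropn1l, Fsip1 and Fsip2, were higher with both, as were 61.0% of the 7068 genes. At a threshold of 1.5-fold, 0 of 7 genes were lower with hairpin 1 (7.07% of all genes) and 2 of 7, Akap3 and Akap4, with hairpin 2 (10.6% of all genes). No sheath gene was 1.5-fold lower with both hairpins, against 4.97% of all genes, and none was 1.5-fold higher with both, against 11.4%. The 0 for lower genes rests on the scaling, since Akap4 was 1.498-fold lower with hairpin 1. Akap4 passed the threshold with both hairpins under median-of-ratios scaling, under trimmed-mean scaling, without the 20 most abundant genes in the total and in germ classes alone. Ropn1 passed it with both under median-of-ratios scaling, so that the count was 2 there and 1 under the other 3 of these settings. With hairpin 1, Fsip1 and Fsip2 were 1.5-fold higher (2 of 7 genes, 16.5% of all genes), and with hairpin 2 none was (26.2% of all genes). The median gene was 0.23 higher on the log2 scale with hairpin 1 and 0.25 higher with hairpin 2, so a sheath gene at the shCtrl level lay below most genes. The medians of the 7 sheath genes were -0.27 with hairpin 1 and -0.34 with hairpin 2.

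**Figure D2:**
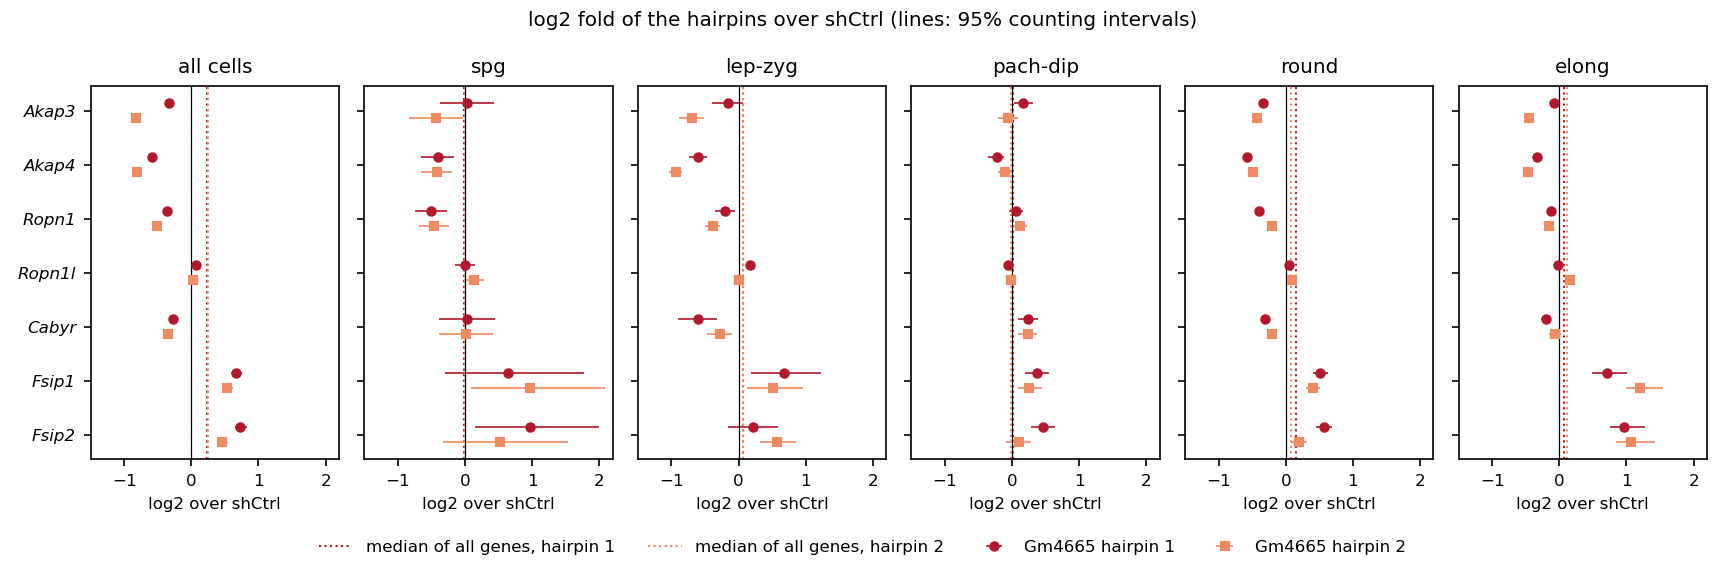
log2 fold of hairpin 1 (circles) and hairpin 2 (squares) over shCtrl for each gene, in all cells and in each germ class, with 95% counting intervals and the median of all genes tested as dotted lines. In all cells the points of Akap3, Akap4, Ropn1 and Cabyr lie left of 0 and those of Fsip1 and Fsip2 lie right of the median gene.

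Akap4, which encodes the most abundant sheath protein, lies on chromosome X at 7067519-7078609 on the plus strand (mm10, 7 merged exons). Over all cells it had 771 CPM with hairpin 1 and 660.1 CPM with hairpin 2, against 1155 CPM with shCtrl, so both hairpin libraries were below the control. The log2 fold was -0.58 (interval -0.60 to -0.56) with hairpin 1 and -0.81 (-0.83 to -0.79) with hairpin 2. Akap3, the anchor laid down early in the sheath, lies on chromosome 6 at 126853098-126874308 on the plus strand, with 6 merged exons. It had 298 CPM with hairpin 1 and 212 CPM with hairpin 2, against 374 CPM with shCtrl, which gave -0.33 (-0.36 to -0.29) and -0.82 (-0.86 to -0.78). The order of the libraries was the same for both anchors: hairpin 2 lowest, hairpin 1 between, shCtrl highest. The share of elongating cells had that order too. Mitochondrial UMIs had the reverse order, with 1.11% of all UMIs with hairpin 2, 0.855% with hairpin 1 and 0.521% with shCtrl. Links of these orders to the folds were not tested. When the classes of each hairpin library were weighted to the mix of shCtrl, Akap4 was at -0.38 with hairpin 1 and -0.46 with hairpin 2, and Akap3 at -0.18 and -0.43. The weighted folds were smaller than the unweighted ones and kept their sign. Summed markers of B and plasma cells were at 925 CPM with hairpin 1 and 1594 CPM with hairpin 2, against 150 CPM with shCtrl, with none of the 5 measured markers at 0. Summed Sertoli cell markers were at 68.9 and 121 CPM, against 182 CPM with shCtrl, with none of 9 at 0. With the mixed and non-germ cells left out, Akap4 was at -0.65 with hairpin 1 and -1.005 with hairpin 2, and Akap3 at -0.28 and -0.66.

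The promoters of these anchors are shown as a description of the sequence. Ropn1 and Cabyr were also lower with both hairpins over all cells, so that trait does not single out Akap3 and Akap4. The profiles of Akap3 and Akap4 over clusters differed (r = 0.526). A link of the sequence to the folds was not tested. RefSeq (GRCm38.p6) gave starts for 5 of the 7 genes, and the 150 bases before the start of Akap3 (chr6:126852948-126853097, plus strand) and before the upstream start of Akap4 (chrX:7067365-7067514, plus strand) are printed 5' to 3'.
Akap3: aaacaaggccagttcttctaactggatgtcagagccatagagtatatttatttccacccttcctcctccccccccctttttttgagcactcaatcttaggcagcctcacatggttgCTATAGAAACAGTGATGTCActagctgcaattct
Akap4: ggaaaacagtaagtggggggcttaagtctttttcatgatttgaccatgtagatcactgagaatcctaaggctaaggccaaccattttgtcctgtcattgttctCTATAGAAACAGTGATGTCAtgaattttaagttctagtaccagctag
Capitals mark a run of 20 bases that both hold without a mismatch. It spans 34 to 15 bases before the start in Akap3 and 47 to 28 bases before it in Akap4. Of 32851 promoters of 250 bases in the RefSeq table, 2 hold this run on either strand, and these are Akap3 and Akap4. Its last 8 bases, TGATGTCA, are found on either strand in 2.93% of the promoters, and the related cyclic AMP response element TGACGTCA in 1.55%. Akap3 and the upstream start of Akap4 hold TGATGTCA but not TGACGTCA. Among the starts given for Ropn1, Ropn1l and Fsip2 and the second start of Akap4, none holds either 8-base motif. The longest run shared by any other pair of different sheath genes is 10 bases. Matching letters are a description of the sequence, and no binding was measured.

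The elongating and condensing class held 51.5% of the Akap4 UMIs with hairpin 1 and 27.3% with hairpin 2, against 63.6% with shCtrl. With hairpin 2, round spermatids held 27.5% and the mixed cluster 29.6%. Within the elongating class Akap4 had 1314 CPM with hairpin 1 and 1195.5 CPM with hairpin 2, against 1649.5 CPM with shCtrl. The log2 folds were -0.33 (-0.36 to -0.30) and -0.46 (-0.50 to -0.43). They lay above 11.0% of the 5149 genes tested in this class with hairpin 1 and above 4.93% with hairpin 2. Prm1 was level there, with 83111.5 CPM for hairpin 1, 81374 CPM for hairpin 2 and 82962 CPM for shCtrl. Prm1, Tnp1 and Tnp2 are in the marker list that names this class. Unlike the sheath genes, they were not left out of the clustering. Like levels of them within a class or cluster can thus come in part from how cells were grouped, which was not tested. The transition proteins that precede the protamines were level with hairpin 1 and lower with hairpin 2: Tnp1 was at 0.04 and -0.16 on the log2 scale, and Tnp2 at -0.02 and -0.27. Akap3 had 368 CPM with hairpin 1 and 286 CPM with hairpin 2, against 390.4 CPM with shCtrl, a log2 fold of -0.09 (-0.14 to -0.03) with hairpin 1 and -0.45 (-0.52 to -0.38) with hairpin 2. Hairpin 1 was thus close to shCtrl for Akap3 and hairpin 2 was below both. In this class 4 of 7 sheath genes were lower with both hairpins (29.7% of genes), the same 4 as over all cells.

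Within clusters the anchors differed further. In all, 6 spermatid clusters had at least 20 cells in every library: 5 and 3 among round spermatids, and 1, 10, 0 and 8 in the elongating class. Akap4 was lower than shCtrl in all 6 with both hairpins. In cluster 5 it had 645 CPM with hairpin 1 and 605 CPM with hairpin 2, against 724 CPM with shCtrl (-0.17 and -0.26). Prm1 was lower in cluster 5 too, at -0.26 and -0.19. In leptotene to zygotene cells, Akap4 levels read as background were 391 and 309 CPM with the hairpins, against 593 CPM with shCtrl. The part of background in the cluster 5 gap was not tested. In cluster 0 Akap4 had 1449.9 and 1357 CPM, against 1722 CPM with shCtrl. The Akap4 gap was widest in cluster 8, with 1295 CPM for hairpin 1 and 1187 CPM for hairpin 2, against 1743 CPM for shCtrl. Tnp2 was lower in cluster 8 too, with 6015 CPM for hairpin 1 and 4876 CPM for hairpin 2, against 7789 CPM for shCtrl (-0.37 and -0.68), and its part in the Akap4 gap there was not tested. Across the 6 clusters the Akap4 log2 fold ran between -0.43 and -0.17 with hairpin 1. With hairpin 2 it ran between -0.55 and -0.26, and no counting interval reached 0 with either hairpin. The median gene of these clusters lay between -0.03 and 0.14. Of the 3764 genes that could be compared in all 6 clusters, 4.78% were lower in every one with both hairpins, and 2 of the 6 sheath genes compared there, Akap4 and Cabyr, were among them. Fsip2 had a mean under 10 CPM in cluster 0 and was not compared.

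**Figure D3:**
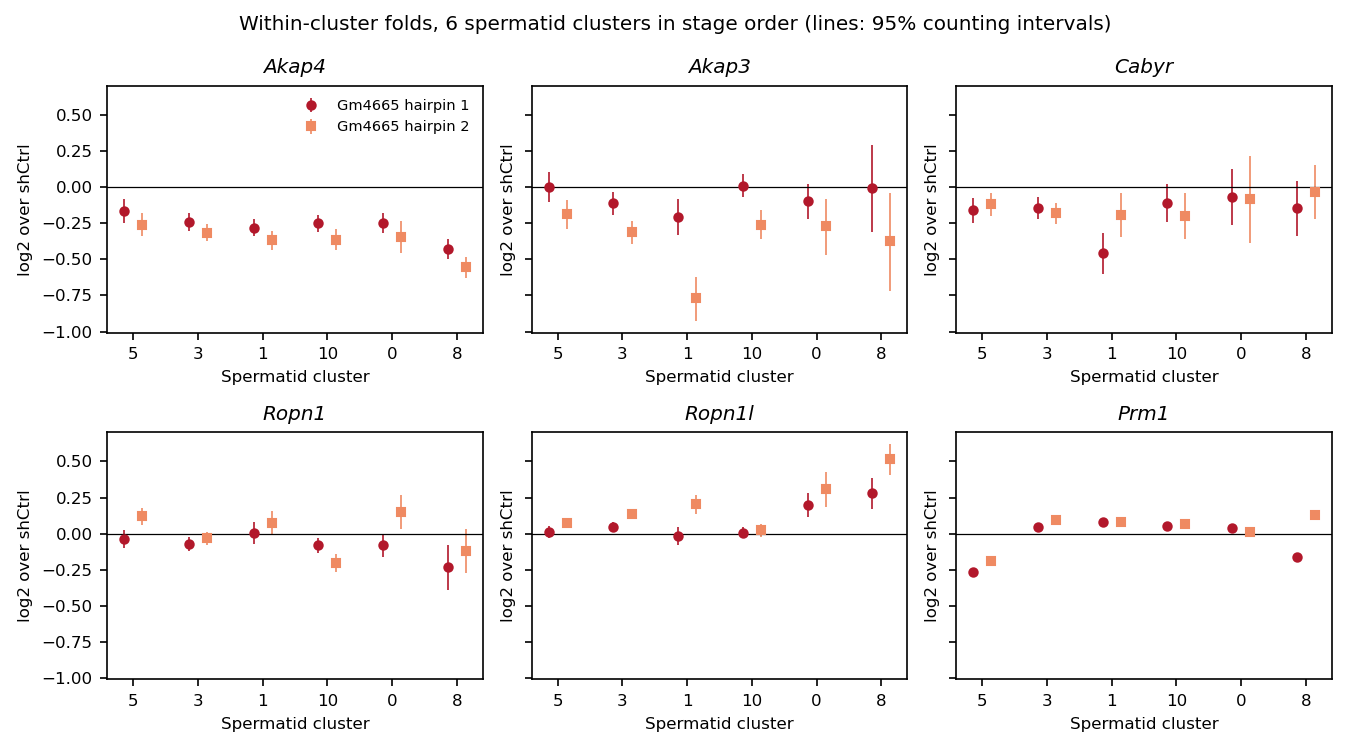
log2 fold over shCtrl within 6 spermatid clusters in stage order, hairpin 1 as circles and hairpin 2 as squares, with 95% counting intervals, for 5 sheath genes and Prm1. Akap4 lies below 0 at every point, between -0.17 and -0.55, and Prm1 lies between -0.26 and 0.13. Prm1 was not left out of the clustering, as the sheath genes were, so its folds are no independent standard for Akap4.

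Akap3 did not keep a gap with hairpin 1 in every cluster. In cluster 10, its highest, Akap3 had 702 CPM with hairpin 1 and 582 CPM with hairpin 2, against 697 CPM with shCtrl. With hairpin 1 its fold in the 6 clusters lay between -0.20 and 0.01, and in 4 of them the counting interval included 0. The interval lay below 0 in cluster 3 (-0.11, interval -0.19 to -0.03) and cluster 1 (-0.20, interval -0.33 to -0.08). With hairpin 2 Akap3 was below shCtrl in all 6, by the most in cluster 1. There it had 201 CPM with hairpin 2 against 344 CPM with shCtrl (-0.77, interval -0.93 to -0.62). In cluster 8 Akap3 was at 72.4 CPM over the 3 libraries, near its non-germ levels of 80.5, 60.7 and 86.0 CPM, so the values there cannot be told from background.

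The ropporins are close relatives that peaked at different stages. Ropn1 lies on chromosome 16 at 34649921-34678618 on the plus strand and Ropn1l on chromosome 15 at 31441211-31453737 on the minus strand. The last 500 bases of their transcripts had no match of 100 bases at 95% identity to each other or to another gene, and the same held for the other 5 sheath genes. Ropn1 had 747 CPM with hairpin 1 and 676 CPM with hairpin 2, against 964 CPM with shCtrl (-0.37 and -0.51). Both hairpin libraries were below the control over all cells, and within clusters the sign varied. In round spermatid cluster 3 Ropn1 had 1500.3 CPM with hairpin 1 and 1541 CPM with hairpin 2, against 1576 CPM with shCtrl, and in cluster 5 it had 1181 and 1317 CPM, against 1212 CPM with shCtrl. In cluster 10 Ropn1 had 1555 CPM with hairpin 1 and 1428 CPM with hairpin 2, against 1645 CPM with shCtrl, a fold of -0.08 (-0.13 to -0.03) and -0.20 (-0.27 to -0.14). In cluster 8 the hairpin 1 fold was -0.23 (-0.39 to -0.08) and the hairpin 2 fold was -0.12 (-0.27 to 0.03). Ropn1 had 271 CPM with hairpin 1 and 293 CPM with hairpin 2 there, against 319 CPM with shCtrl. These levels are near its 323, 285 and 372 CPM in leptotene to zygotene cells, which are read as background. They lie above its 193, 160 and 172 CPM in non-germ cells, and the part of background in the cluster 8 folds was not tested. The fold with hairpin 2 was positive in 3 of the 6 clusters, namely 5, 1 and 0. Ropn1l had 2265 CPM with hairpin 1 and 2185 CPM with hairpin 2, against 2148 CPM with shCtrl, a difference of 0.08 and 0.02 on the log2 scale. It changed sign with both hairpins under median-of-ratios and trimmed-mean scaling, so no direction is given for it. In pachytene cells, its highest class, Ropn1l had 3413 CPM with hairpin 1, 3526 CPM with hairpin 2 and 3561 CPM with shCtrl. In cluster 8 its fold was 0.28 with hairpin 1 and 0.52 with hairpin 2, at 602 and 709.6 CPM against 496 CPM with shCtrl. Those levels are near the 689, 605 and 364 CPM of the non-germ cells.

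Cabyr lies on chromosome 18 at 12740322-12755260 on the plus strand. It had 281 CPM with hairpin 1 and 267 CPM with hairpin 2, against 339 CPM with shCtrl, which gave -0.27 (-0.31 to -0.23) and -0.34 (-0.38 to -0.31). Between 58.9% and 59.1% of its UMIs in each library came from round spermatids, where it had 526 CPM with hairpin 1 and 567 CPM with hairpin 2, against 653 CPM with shCtrl. In clusters 5 and 3, which hold most of these cells in shCtrl, its folds were -0.16 and -0.14 with hairpin 1 and -0.12 and -0.18 with hairpin 2. In clusters 0 and 8 the counting intervals with both hairpins included 0. In pachytene cells the order was the other way, with 155 CPM for each hairpin against 132 CPM for shCtrl.

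**Figure D4:**
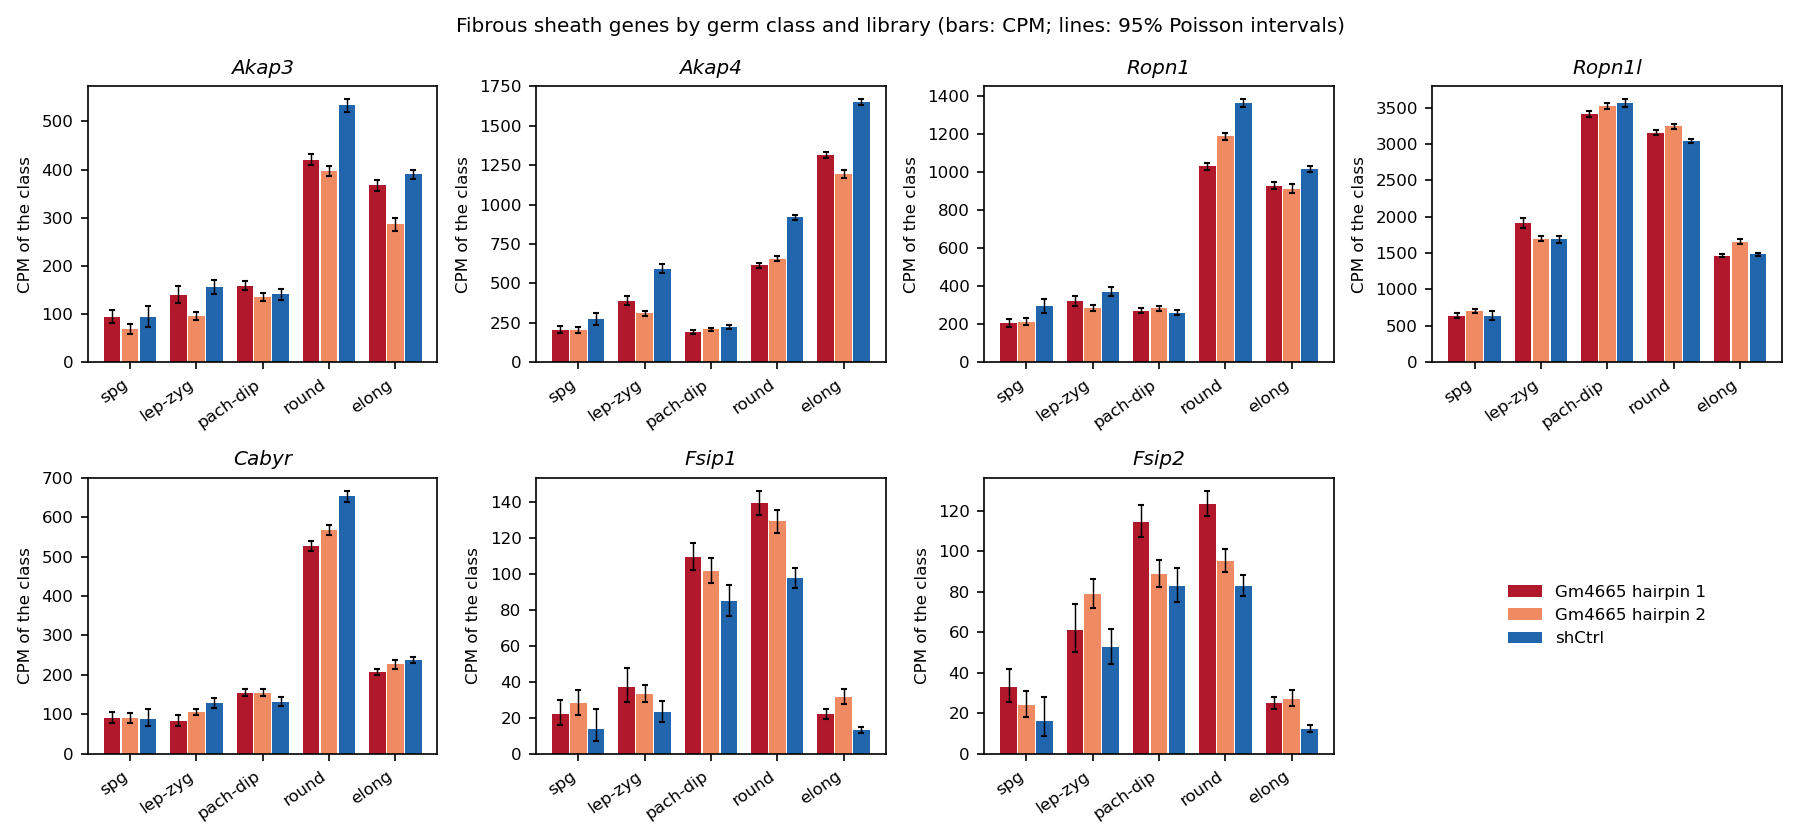
CPM of each sheath gene by germ class (spg, spermatogonia; lep-zyg, leptotene to zygotene; pach-dip, pachytene to diplotene; round, round spermatids; elong, elongating and condensing spermatids) for hairpin 1, hairpin 2 and shCtrl. Bars are class sums and lines are 95% Poisson intervals. Akap4 in the elongating class has 1314 and 1195.5 CPM with the hairpins against 1649.5 CPM with shCtrl, while Fsip1 and Fsip2 have taller hairpin bars in round spermatids.

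Fsip1 and Fsip2 were higher over all cells with each hairpin under every scaling tried. Both lie on chromosome 2, Fsip1 at 118130424-118256966 on the minus strand and Fsip2 at 82943634-83008937 on the plus strand. An exon of Gm29232 overlaps Fsip1 on the same strand by 133 bases, and the sources used here do not say how its reads were assigned. Fsip1 had 75.8 CPM with hairpin 1 and 68.9 CPM with hairpin 2, against 47.5 CPM with shCtrl (0.66 and 0.53). Fsip2 had 74.1 CPM with hairpin 1 and 61.4 CPM with hairpin 2, against 44.5 CPM with shCtrl (0.72 and 0.46). The share of UMIs that came from pachytene cells, where both genes stood above background, was 18.6% with hairpin 1 and 17.4% with hairpin 2, against 11.0% with shCtrl.

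In round spermatids 4 of 7 sheath genes were lower with both hairpins (32.0% of genes) and 3 of 7 were higher with both (52.7% of genes). Fsip1 had 139 CPM with hairpin 1 and 129 CPM with hairpin 2, against 97.4 CPM with shCtrl in this class. Fsip2 had 123 CPM with hairpin 1 and 95.2 CPM with hairpin 2, against 83.0 CPM with shCtrl. Clusters 5, 15 and 3 had at least 10 cells in each library and were weighted to the shCtrl mix. Clusters 7 and 18, where Fsip1 was highest, did not reach that number. Cluster 15 held only 13 shCtrl cells. Over those 3 weighted clusters Fsip1 was at 0.02 with hairpin 1 and -0.04 with hairpin 2, and Fsip2 at 0.26 and -0.14. In cluster 5, Fsip1 had 164 CPM with each hairpin and 170.1 CPM with shCtrl. Fsip2 had 169.5 CPM with hairpin 1 and 123 CPM with hairpin 2 there, against 124.5 CPM with shCtrl, so hairpin 1 alone was above the control. Ropn1 in round spermatids was at -0.40 with hairpin 1 and -0.20 with hairpin 2 without this weighting and at -0.06 and 0.01 with it. Akap4 was at -0.58 and -0.49 without it and at -0.22 and -0.30 with it.

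In the elongating class Fsip1 and Fsip2 were at least 1.5-fold higher with both hairpins (2 of 7 genes, 10.5% of genes). Fsip1 had 22.0 CPM with hairpin 1 and 31.5 CPM with hairpin 2, against 13.1 CPM with shCtrl, and its non-germ levels were 22.4, 23.3 and 11.1 CPM. Fsip2 had 25.0 CPM with hairpin 1 and 27.2 CPM with hairpin 2, against 12.4 CPM with shCtrl, and its non-germ levels were 31.3, 22.0 and 2.78 CPM. Those of shCtrl rested on 4 UMIs of Fsip1 and 1 UMI of Fsip2. The class mixed 1 cluster above these levels with others near them. In cluster 1 Fsip1 had 31.6 CPM with hairpin 1 and 45.3 CPM with hairpin 2, against 27.1 CPM with shCtrl, a fold of 0.21 (-0.20 to 0.65) and 0.72 (0.31 to 1.18). Fsip2 had 48.7 CPM with hairpin 1 and 49.1 CPM with hairpin 2 there, against 37.4 CPM with shCtrl (0.37 and 0.38), and 433 of its UMIs in this class were in that cluster. In the other elongating clusters with at least 20 cells of a library, Fsip1 lay between 9.47 and 23.2 CPM and Fsip2 between 1.70 and 17.0 CPM, and those levels are read as background and not as expression.

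Of 17 further proteins found in or bound to the sheath, 16 passed the filter over all cells. Of these, 12 were below shCtrl with both hairpins (28.2% of all genes), 1 of them by 1.5-fold (4.97% of all genes), and none was 1.5-fold higher with both (11.4% of all genes). The share of 1 in 16 is near that of all genes. Their median log2 fold was -0.16 with hairpin 1 and -0.37 with hairpin 2. The 1 gene past the threshold, named here after its values were seen, was Prkar2a, a regulatory subunit of protein kinase A. It had 267 CPM with hairpin 1 and 247 CPM with hairpin 2, against 411 CPM with shCtrl (-0.62 and -0.74). Prkar1a, another regulatory subunit in the list, was higher with both hairpins, at 0.50 and 0.33. So was the catalytic subunit Prkaca, at 0.64 and 0.51, as were 61.0% of all genes. Prkar1a lay above 76.6% of genes with hairpin 1 and 55.5% with hairpin 2, and Prkaca above 87.5% and 68.8%. Both were also named after their values were seen. Gapdhs, the sperm form of glyceraldehyde phosphate dehydrogenase that is bound to the sheath, had 1911 CPM with hairpin 1 and 1739.8 CPM with hairpin 2, against 2818 CPM with shCtrl (-0.56 and -0.70). Gstm5, a glutathione transferase found in the sheath, had 3523 CPM with hairpin 1 and 3334 CPM with hairpin 2, against 3753 CPM with shCtrl (-0.09 and -0.17). Spa17, which carries the same dimerization domain as the ropporins, had 2187 and 2047 CPM, against 2573 CPM with shCtrl. Ldhc, the lactate dehydrogenase of germ cells, had 5423 and 4960.2 CPM, against 5119.5 CPM with shCtrl, so its libraries differed little.

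In elongating cells some of these gaps were smaller and others larger. Prkar2a was at -0.25 with hairpin 1 and -0.16 with hairpin 2 there, Gapdhs at -0.25 and -0.27, and Spa17 at -0.03 and 0.00 beside Akap4 at -0.33 and -0.46. Ldhc was at 0.17 with hairpin 1 and 0.16 with hairpin 2 in this class. Eno4, the sperm enolase, named after its values were seen, was at -0.32 and -0.87 here and at -0.16 and -0.65 over all cells. In elongating cells Eno4 had only 12.9 CPM with hairpin 1 and 8.46 CPM with hairpin 2, against 16.3 CPM with shCtrl. Those levels are near its 13.4, 12.7 and 15.9 CPM in leptotene to zygotene cells, and the part of background in this gap was not tested. Of 15 partners tested in that class, none was 1.5-fold lower with both hairpins (1.03% of genes) or 1.5-fold higher with both (10.5% of genes). Of 13 other A-kinase anchors, 7 passed the filter over all cells and 4 were below shCtrl with both hairpins (28.2% of all genes). Akap1, the anchor at the mitochondrial surface, had 278 CPM with hairpin 1 and 235 CPM with hairpin 2, against 393 CPM with shCtrl (-0.50 and -0.74). Akap9, a centrosomal anchor also named after its values were seen, was the 1 gene of that list that was 1.5-fold higher with both (11.4% of all genes), at 21.8 and 22.1 CPM, against 13.4 CPM with shCtrl.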

How the data were processed

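The values used were the deposited table of natural log values, as the authors gave them: a gene's UMIs were divided by the cell total, multiplied by 10000, raised by 1 and logged. Per the submitters' processing notes, Cell Ranger 1.3.1, Seurat 2.0.0 and the mm10 build were used. The sources used here give neither the strand of counting nor the annotation nor the thresholds for cells. Per the labels' protocols, libraries were 10x Genomics 3' libraries. With the log undone, 100.0% of 20140203 non-zero values were whole UMIs within 0.01, so sums of UMIs replaced ln means. Columns were matched to the hairpins by the last digit of their names alone. If that digit misleads, the values of hairpin 1 and hairpin 2 change places.

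No cell was removed in addition, and doublets were not called. The sources used here do not say if doublets were filtered earlier. Cells were clustered with scanpy 1.11.5 and igraph 0.11.9 from 2000 variable genes without the sheath genes and Gm4665, 30 principal components, 15 neighbours and Leiden resolution 0.8. This gave 19 clusters, named where at least 3 markers of a list were raised 1.5-fold. Cluster names are rebuilt here and mean cells like that class. Folds over shCtrl used a pseudocount of 1 CPM and genes with a mean of at least 10 CPM and at least 30 UMIs, in classes with at least 50 cells in every library. Intervals are exact Poisson for CPM, exact binomial for shares and conditional binomial for folds, at 95%, and cover counting error only. Profiles over clusters used log2 of CPM plus 10, among genes reaching 100 CPM in 1 cluster. Gene positions came from GENCODE vM21 (mm10), close copies of transcripts were searched by blastn 2.17.0, and promoters came from RefSeq GRCm38.p6. The fold and interval steps were tested on simulated data.

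All 7 genes are named, with the 3 genes of most like profile, of which 1 or 3 are printed. From 2 related lists some of the most abundant genes are named (Ldhc, Gstm5, Gapdhs, Spa17 and Akap1). Prkar2a, Prkar1a, Prkaca, Eno4 and Akap9 were chosen after their values were seen. The genes and lists were chosen with earlier results of these data known. Alternatives changed the scaling, pseudocount, depth (thinned to 10000 UMIs), clustering and class mix. Thinning also left out the cells under 10000 UMIs. These were 530 of 1732 cells with hairpin 1, 332 of 1873 with hairpin 2 and 70 of 1418 with shCtrl. A shift under thinning can thus come from depth or from the cells left out.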

Additional observations from a re-analysis of the deposited data

Results flagged for a closer look

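Cabyr was higher than shCtrl with both hairpins in pachytene to diplotene spermatocytes and lower with both in the classes on either side. Its log2 fold was 0.23 with hairpin 1 and 0.23 with hairpin 2 in pachytene cells, where it had 155 CPM with each hairpin against 132 CPM with shCtrl. In leptotene to zygotene cells the fold was -0.60 with hairpin 1 and -0.28 with hairpin 2, and in round spermatids it was -0.31 and -0.20. The difference between the classes was not tested, since each condition is 1 library. In leptotene to zygotene cells Cabyr was at 0.623, 0.846 and 0.705 times the UMIs expected from its library ratio to Prm1 with hairpin 1, hairpin 2 and shCtrl, so its level there is read as background, and Prm1 itself was at -0.49 and -0.63.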

How the results depend on the processing

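The count of 4 sheath genes lower with both hairpins over all cells was 5 under median-of-ratios and under trimmed-mean scaling, which added Ropn1l, and 4 under the other settings tried. In round spermatids it was 3 with clusters weighted to the shCtrl mix and 4 otherwise. In elongating cells it was 5 at Leiden resolution 1.2 and 5 with the mixed cluster included, a setting chosen after seeing the data, and 4 otherwise. The count of sheath genes 1.5-fold lower with both was 0 with UMI totals, 2 under median-of-ratios scaling and 1 under trimmed-mean scaling, without the 20 most abundant genes and in germ classes alone. The folds of Akap3 and Akap4 over all cells kept their sign in every setting but moved. With median-of-ratios scaling Akap3 was at -0.55 with hairpin 1 and -1.07 with hairpin 2, and Akap4 at -0.81 and -1.06. With trimmed-mean scaling the values were -0.54 and -1.045 for Akap3, and -0.79 and -1.03 for Akap4. Without the 20 most abundant genes in the total they were -0.38 and -0.89, and -0.64 and -0.88. Thinning gave -0.44 and -0.998 for Akap3 and -0.89 for Akap4 with hairpin 2. Weighting the classes gave -0.18 and -0.43 for Akap3 and -0.38 and -0.46 for Akap4. Germ classes alone gave -0.28 and -0.66 for Akap3 and -0.65 and -1.005 for Akap4. Median-of-ratios scaling left the median gene at 0.01 with both hairpins and gave 856 genes 1.5-fold lower and 208 higher with both. Trimmed-mean scaling gave 810 and 225, the total without the 20 genes 478 and 578, and UMI totals 351 and 806. In elongating cells Akap3 with hairpin 2 ranged between -0.91 and -0.33. In round spermatids with hairpin 2, cluster weighting turned Fsip1 (-0.04) and Fsip2 (-0.14) negative and Ropn1 (0.01) positive, and thinning also turned Fsip2 negative (-0.01). The causes of these shifts were not tested. Depth limits Fsip1 and Fsip2 in elongating cells, which hold 212 to 255 and 183 to 289 UMIs per library. No paired analysis was possible because each condition is 1 library, and no replicate could be left out.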
